A study of Homo sapiens with 8 samples.

Results

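MDA-MB-231 cells after depletion of GPX1 were compared with control MDA-MB-231 cells, using the expected counts of every listed gene. The comparison rests on 4 of the 8 RNA-seq libraries of the series, 2 titled as controls and 2 titled with an siRNA against GPX1, chosen by their titles. The other 4 libraries repeat the design in Hs578T, a further triple-negative line. MDA-MB-231 is an established human breast cancer line of mesenchymal character, and triple-negative means that it lacks the oestrogen and progesterone receptors and amplified HER2. The control group is labelled "control" with no further agent named, and the depleted group is labelled siGpx1 in its titles and Gpx1-/- in its genotype tag. It is called siGPX1 here, since some GPX1 counts remained. Neither the type of control, the number of siRNAs nor the time after transfection is given in the labels, nor whether replicates were separate cultures, so the p-values speak of the spread among the libraries alone, and that spread may be technical.

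GPX1 is a selenocysteine enzyme that reduces hydrogen peroxide to water at the expense of glutathione, which glutathione reductase then restores with NADPH. It shares this work with the peroxiredoxins, with catalase and with its relative GPX4, which acts on lipid peroxides in membranes. An siRNA lowers a transcript by guiding an Argonaute protein to a matching site. As a known property of siRNAs, the short seed of the guide can also pair with 3' untranslated regions (3' UTRs) of other transcripts. The series title links GPX1 to metastasis, the spread of tumour cells, in which adhesion to matrix, proteolysis and secreted cytokines take part.

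The MDA-MB-231 libraries held 12905808 to 14216365 expected counts and detected 15573 to 15705 genes each. Replicates lay close together. The chi-square of their counts, averaged over genes, was 1.71 for the controls and 1.36 for the siGPX1 libraries. Markers of the line's mesenchymal type were abundant in all 4 libraries. VIM, the intermediate filament vimentin, stood at 1684 and 1753 CPM (counts scaled to the size of the library) in control and 2203 and 2186 CPM after depletion, and the hyaluronan receptor CD44 at 1125, 1094, 1254 and 1271 CPM. The oestrogen receptor ESR1 had 1 count in 1 control and 0 in the other 3 libraries, and the progesterone receptor PGR 2, 0, 2 and 2 counts. ERBB2, which encodes HER2, was present at 68.8, 73.3, 78.5 and 74.0 CPM. Of 20 leukocyte markers, 10 to 12 were at 0 in a library, and the list took 0.0269 to 0.0317% of the counts.

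GPX1 fell to 3.49% of its control level. It held 2944 and 3223 counts in the controls and 108 and 95 in the siGPX1 libraries, or 194 and 209 CPM against 7.28 and 6.78 CPM. The siGPX1 libraries lay far below both controls, on the side their titles give. The log2 fold change was -4.84 ± 0.07 (SE, which understates the error of so large a change), with a Benjamini-Hochberg adjusted p = 9.08e-16 from the quasi-likelihood test of edgeR. All adjusted p-values below come from that test over the 14249 genes tested.

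Of these genes, 42.6% were called at an adjusted p under 0.05, 2950 higher (20.7%) and 3116 lower (21.9%), and 57.4% were not. Among the 10840 tested genes with a mean of at least 5 CPM, 25.5% rose and 26.7% fell. Large changes leaned downward, with 421 genes over 2-fold lower (2.95%) against 176 over 2-fold higher (1.24%). The split of all calls moved with the scaling and the filter. Rises made up 48.6% of the calls here and 58.9% with a filter of 5 CPM in 2 libraries, where the median of all genes shifted by 0.05 on the log2 scale. They made up 56.9 to 57.8% when any 1 of the 4 libraries was left out, and falls then numbered 2033 to 2164. Counts of small changes in the gene lists below depend on the same shift. Each is to be read beside the shares over all genes given here, since some lists lie near those shares.

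The largest falls were those of IL11, TMEM64, ADIPOR2, DENND6A and MDH2. IL11, an IL-6 family cytokine that promotes bone resorption, held 65.7 and 70.3 CPM in control and 6.81 and 6.14 CPM in siGPX1 libraries, a 10.5-fold fall. TMEM64, a transmembrane protein, went from 80.2 and 77.3 to 8.16 and 10.9 CPM. ADIPOR2, a receptor for adiponectin, went from 115 and 114 to 16.8 and 16.6 CPM. In each of these genes both siGPX1 libraries lay far below either control, and replicates lay close together. Genes were named by size only where both siGPX1 libraries lay on the same side of both controls. That separation is therefore no result. DENND6A, which activates a RAB GTPase of endosomal recycling, went from 69.9 and 67.2 to 12.4 and 11.2 CPM. MDH2, the mitochondrial malate dehydrogenase of the TCA cycle, went from 183 and 190 to 33.3 and 31.0 CPM.

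Further down the order of falls stood genes of ion transport, splicing, mucosal defence and the cytoskeleton. The chloride/proton exchanger CLCN4 was at 64.3 and 63.0 CPM in control and 12.3 and 10.6 CPM after depletion. PHF5A, a subunit of the splicing factor SF3B, was at 28.9 and 32.1 against 5.86 and 5.36 CPM, and TCTA, a small transmembrane protein, at 34.9 and 35.5 against 6.61 and 6.78 CPM. DMBT1, a secreted scavenger receptor protein of mucosal surfaces, fell from 29.2 and 27.1 to 5.12 and 5.93 CPM. PFN2, a profilin that binds actin monomers, fell from 38.5 and 39.5 to 7.28 and 8.35 CPM, and B3GNT5, a glycosyltransferase of lacto-series glycolipids, from 112 and 111 to 24.7 and 20.8 CPM. GTF2H2C, at 9.75 and 7.52 against 2.09 and 1 CPM, has near-identical copies, and its value is uncertain. All 12 falls named by size had an adjusted p of at most 4.96e-07.

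ARL6IP1 led the rises. This protein, which bends membranes of the tubular endoplasmic reticulum, went from 129 and 133 CPM to 579 and 570 CPM, a 4.39-fold rise (log2 fold change 2.13 ± 0.04, adjusted p = 1.62e-14). SOX4, a developmental transcription factor active in many carcinomas, went from 8.63 and 8.49 to 30.7 and 30 CPM, and CDC42SE2, a small effector of the GTPase CDC42, from 16.6 and 16.6 to 54.3 and 55.7 CPM. CLDN12, a claudin, went from 38 and 32.7 to 114 and 108 CPM. In these genes both siGPX1 libraries lay above both controls with a wide gap, but lying on 1 side was a condition for being named by size. In 71.4% of all tested genes the siGPX1 libraries lay on 1 side of both controls. DCP2, the catalytic subunit that removes the cap from mRNAs before decay, rose 3.12-fold, CPOX, a mitochondrial enzyme of heme synthesis, 2.92-fold, EFR3A, which anchors a phosphatidylinositol kinase at the plasma membrane, 2.83-fold, and CITED2, a cofactor that limits HIF-1 activity, 2.78-fold. FAM160B1 and C4orf46 rose 2.94-fold and 2.93-fold. SMN2 and HERC2P3 also ranked here, at 2.10 ± 0.20 and 1.65 ± 0.35 on the log2 scale, but both have near-identical copies that share reads. Their controls differed, at 16.7 and 9.59 CPM for SMN2. The 12 rises had an adjusted p of at most 0.00125.

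**Figure D1:**
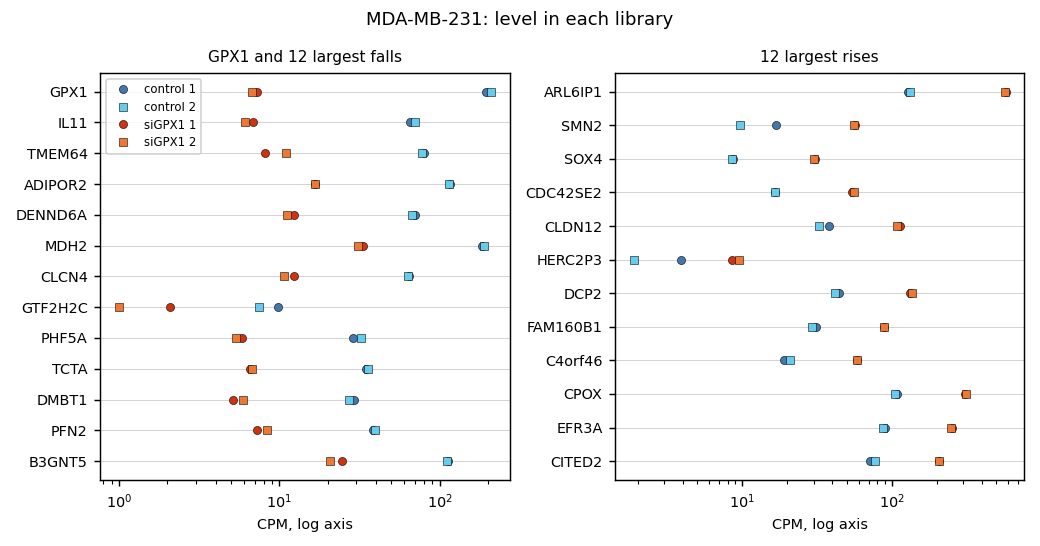
Level of GPX1, of the 12 largest falls and of the 12 largest rises in each MDA-MB-231 library, in CPM on a log axis. Each point is 1 library, circles replicate 1 and squares replicate 2. In every gene drawn both siGPX1 libraries lie on the same side of both controls, which was a condition for drawing all but GPX1.

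Of the 12 largest falls, 8 shared a short sequence in their 3' UTR that 0 of the 11 largest rises with an annotated 3' UTR held. Among 15937 sequences of 7 bases ranked by the difference in mean change between genes with and without them, scaled by its standard error, GGGCATC and GGCATCA came first and second toward lower expression. Joined, they read GGGCATCA, which 5 of 6 annotated GPX1 transcripts carry, in each of them in the coding sequence. The sites are shown for GPX1, from the longest transcript that carries it, and for matched genes that recur below, 5' to 3', with the matched bases in capitals, from GENCODE 29 transcripts (GRCh38, a later build than the hg19 of the files).
GPX1: accagtttGGGCATCAggagaacg
IL11: ggcctgggGGGCATCtgtgcctt
MDH2: tttatgaaGGCATCAtgtcactg
PHF5A: tattcacaGGCATCAtcatagcc
TCTA: gtctccaaGGGCATCActgggtct
PFN2: gccaagttGGGCATCActttgtct
CDC42: ctggtgtcGGCATCAtactaaaa
CSF1: cacttggtGGCATCAgagcagga
TXNRD1: atttggcaGGGCATCgaagggat
CDH11: aatgttacGGCATCAcacttata
TIMP2: cctgttctGGCATCAggcacctg
The printed GPX1 stretch begins on the minus strand of chromosome 3 at base 49358043 and crosses an exon boundary. The IL11 site lies at chr19:55365851-55365873 on the minus strand, 142 bases into a 3' UTR of 1618 bases. The MDH2 site lies at chr7:76066441-76066463 on the plus strand, 39 bases into a UTR of 1098 bases, and the CDC42 site at chr1:22091546-22091568 on the plus strand, 37 bases into one of 1429. The PFN2 site is at chr3:149965903-149965926 on the minus strand and the TCTA site at chr3:49414879-49414902 on the plus strand, and both hold the whole 8-base sequence.

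Genes with these sites were lower as a class. Since the sequences were picked on these changes, the class values are a description with no test. Where the 3' UTR held all 8 bases (315 genes), the median change was -0.37 on the log2 scale, and 53% of the genes fell while 9.52% rose. Where it held just 7 of them (1509 genes), the median was -0.19, with 42.4% lower and 14.2% higher. The 11279 genes with neither had a median of 0.02, with 19.2% lower and 23.2% higher. Genes holding only the related sequences GGCATCT or TGGCATC, ranked 3 and 4 toward lower expression, count among those with neither. The mean change of all genes with GGCATCT (1462) was -0.24, and of all with TGGCATC (1450) -0.21. Matched genes made up 13.9% of all 13103 genes with a 3' UTR, 53.9% of the 386 of them that fell over 2-fold and 5.56% of the 162 that rose over 2-fold. Matched UTRs were longer, with a median of 2715 bases against 1084. With UTRs split by length into 3 equal classes, matched genes in the shortest class had a median change of -0.31 against 0.00 for the others, and in the longest class -0.15 against 0.05. The part of such pairing in the changes was not tested. Below, a gene with such a site in its 3' UTR is called matched, though not at every mention. IL11, MDH2 and PHF5A, which recur below, are matched.

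**Figure D2:**
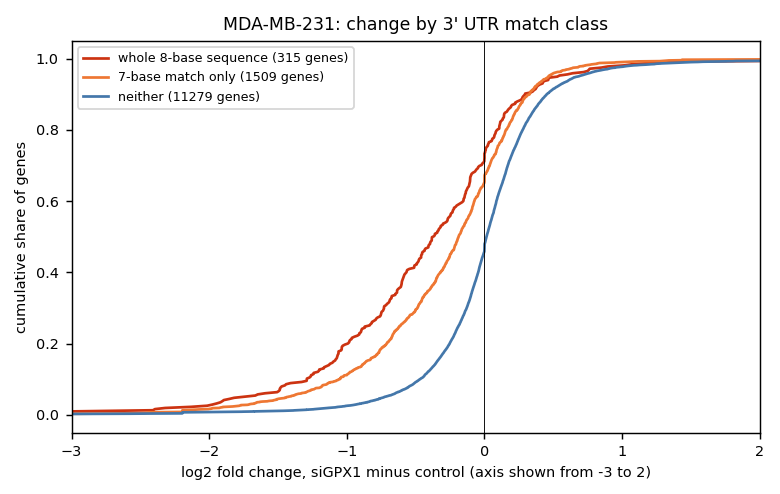
Cumulative share of genes by log2 fold change in MDA-MB-231, for genes whose 3' UTR held the whole 8-base sequence (315), only a 7-base match (1509) or neither (11279). Below 0 the matched curves lie to the left of the unmatched one, with medians of -0.37, -0.19 and 0.02.

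Beyond GPX1 itself, the glutathione peroxidases changed little. GPX8, which acts in the endoplasmic reticulum, went from 99.7 and 99.6 to 82.6 and 79.5 CPM (log2 fold change -0.30 ± 0.05), and the secreted GPX3 from 170 and 173 to 153 and 152 CPM (-0.17 ± 0.04). GPX4 did not pass, at 171, 173, 176 and 172 CPM. Per length, GPX1 and GPX4 were the highest of the named family members in control, at 614 and 523 TPM (a scaled level that also divides by transcript length), and after depletion GPX1 was at 21.1 TPM. Of 22 other genes for selenoproteins and selenocysteine insertion, 4 rose and 6 fell (3 to 6 without any 1 library). The largest of these falls was that of TXNRD1, the cytosolic thioredoxin reductase, which went from 638 and 652 to 315 and 320 CPM (-1.02 ± 0.03, matched), followed by SELT (-0.72 ± 0.06, matched).

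Among other antioxidant genes rises outnumbered falls. Of 18 enzymes that handle peroxide and superoxide, 8 rose (44.4%) and 1 fell, and of 29 genes of glutathione synthesis and the NRF2 response, 12 rose (41.4%) and 2 fell. TXNIP, which inhibits thioredoxin, rose by 0.60 ± 0.04 on the log2 scale, SRXN1, which repairs overoxidised peroxiredoxins, by 0.37 ± 0.05, CAT, the peroxisomal catalase, by 0.19 ± 0.05 and PRDX1 by 0.17 ± 0.05. The pentose phosphate enzymes PGD (80.8 and 84.9 CPM in control, 136 and 138 CPM after depletion) and TKT (270 and 275, 363 and 363 CPM, matched), which supply NADPH and sugars, rose by 0.73 ± 0.06 and 0.41 ± 0.04. The NRF2 gene NFE2L2 did not pass (0.09 ± 0.04, adjusted p = 0.0572), nor did the heme oxygenase HMOX1 (-0.10 ± 0.12, adjusted p = 0.531). The glutathione conjugate exporter ABCC1 fell by 0.76 ± 0.05, and SLC3A2, the heavy chain of the cystine transporter, by 0.32 ± 0.05. Each change called here had an adjusted p of at most 0.0124.

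In central metabolism falls outnumbered rises. Of 30 TCA cycle and malate-aspartate shuttle genes, 15 fell (50%) and 4 rose, and the falls numbered 8 to 10 when any 1 library was left out. Besides MDH2, SUCLG2, a subunit of succinyl-CoA synthetase, went from 61.7 and 58.1 to 27.8 and 28.2 CPM (matched) and ACLY, which makes cytosolic acetyl-CoA, from 409 and 409 to 246 and 249 CPM. The cytosolic partner MDH1 was nearly level, at 178 and 178 against 162 and 166 CPM (-0.12 ± 0.04, adjusted p = 0.0325). IDH1 and IDH2, the NADP-dependent isocitrate dehydrogenases, rose by 0.60 ± 0.06 and 0.46 ± 0.09. Of 39 glycolysis and hypoxia genes 15 fell (38.5%) and 8 rose (20.5%), beside 21.9% and 20.7% of all genes. That lean was not stable, with 13 falls and 13 rises of 37 under the filter of 5 CPM in 2 libraries. Lowest among well-expressed members were NDRG1 (-0.95 ± 0.05, matched) and the vasodilator adrenomedullin gene ADM (-0.79 ± 0.08). Highest were PDK1 (0.78 ± 0.07) and the HIF prolyl hydroxylase EGLN3 (0.73 ± 0.09, matched).

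Lipid genes moved the same way, with 13 of 33 sterol and fatty acid synthesis genes lower and 2 higher (8 to 11 lower without any 1 library). STARD4, a sterol carrier, fell by 1.16 ± 0.13, the desaturase FADS2 by 0.87 ± 0.07 (matched) and the fatty acid synthase FASN by 0.61 ± 0.04, while the elongase ELOVL6 rose by 0.39 ± 0.04. In heme synthesis and iron handling 8 of 21 genes rose and 5 fell (3 or 4 falls without any 1 library). SLC39A14, which imports zinc and iron, went from 146 and 147 to 30.9 and 33.2 CPM (-2.20 ± 0.06, matched), against a rise of the iron exporter SLC40A1 (9.29 and 9.20, then 15.4 and 16.6 CPM) and of the ferrireductase STEAP3 (70.3 and 75.5, then 125 and 121 CPM). CPOX rose while UROD, the enzyme before it in heme synthesis, fell by 0.31 ± 0.06. The metabolic genes named here had an adjusted p of at most 0.0325.

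The IL-6 family cytokines IL11, IL6 and LIF fell, and the receptor chains IL6ST and LIFR and the transducer STAT3 rose. IL6 went from 94.1 and 91.3 to 24.5 and 23.7 CPM (3.85-fold lower, log2 fold change -1.94 ± 0.07), and IL11 fell 10.5-fold (matched). LIF, another family member, went from 48.4 and 49.7 to 30.7 and 29.6 CPM (matched). The shared signalling receptor IL6ST rose from 728 and 719 to 932 and 935 CPM, the LIF receptor LIFR from 80.3 and 80.3 to 127 and 131 CPM (matched) and the transcription factor STAT3 from 157 and 162 to 229 and 234 CPM. SOCS1, a feedback inhibitor of the pathway, rose by 0.79 ± 0.14, and the kinase TYK2 fell by 0.83 ± 0.06. Over the 18 tested members 7 rose and 6 fell. All members named in this list had an adjusted p of at most 2.47e-04.

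Chemokine genes fell more often than they rose. Of 15 tested chemokine and receptor genes 6 fell (40.0%) and 2 rose, with a median log2 fold change of -0.65 beside 0.00 over all genes. That median was not stable. It was -0.17 without control replicate 1, -0.28 without control replicate 2, -0.28 with the MDA-MB-231 libraries fitted alone, -0.36 with no filter and -0.04 with limma on log2(TPM + 1), while 5 to 7 genes fell in each of these fits. CXCL1, which attracts neutrophils, went from 70.2 and 68.0 to 17.3 and 19.1 CPM (3.79-fold lower), and IL8, with the same role, from 72.9 and 78.4 to 28.1 and 27.3 CPM. CXCL2 went from 16.2 and 16.4 to 9.91 and 10.9 CPM and CXCL3 from 7.97 and 7.52 to 3.98 and 4.14 CPM. These paralogs are similar in sequence, so reads may be split among them, but each was lower in both siGPX1 libraries. The membrane-bound CXCL16 rose by 0.70 ± 0.12 and the scavenging receptor CXCR7 by 0.80 ± 0.16. CXCR4, the receptor for CXCL12 and a bone metastasis gene of this line, was low and did not pass, at 2.04, 1.43, 2.02 and 2.07 CPM (0.24 ± 0.32, adjusted p = 0.593). No tested chemokine gene was matched.

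The genes of 3 colony-stimulating factors were lower too. CSF1, the macrophage growth factor, went from 709 and 714 to 338 and 350 CPM (matched), CSF2, which encodes GM-CSF, from 37.9 and 36.3 to 23.0 and 22.6 CPM, and CSF3, which encodes G-CSF, from 19.3 and 18.1 to 4.25 and 4.5 CPM. IL1RAP, the accessory chain of the interleukin-1 receptor, fell from 35.9 and 32.9 to 7.55 and 9.71 CPM. The cytokine IL1B was low and did not pass, at 3.56, 3.17, 3.10 and 3.64 CPM. In this list 6 of 12 tested genes fell (50%) and 0 rose. Among 22 NF-kappaB subunits and inhibitors 10 fell and 4 rose, each by at most 0.63 on the log2 scale (5 or 6 falls without any 1 library). NFKB1 fell by 0.49 ± 0.06 and RELB by 0.45 ± 0.10, while the kinase MAP3K14 of the noncanonical branch rose by 0.63 ± 0.06. The named falls in these 3 lists had an adjusted p of at most 0.00183.

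**Figure D3:**
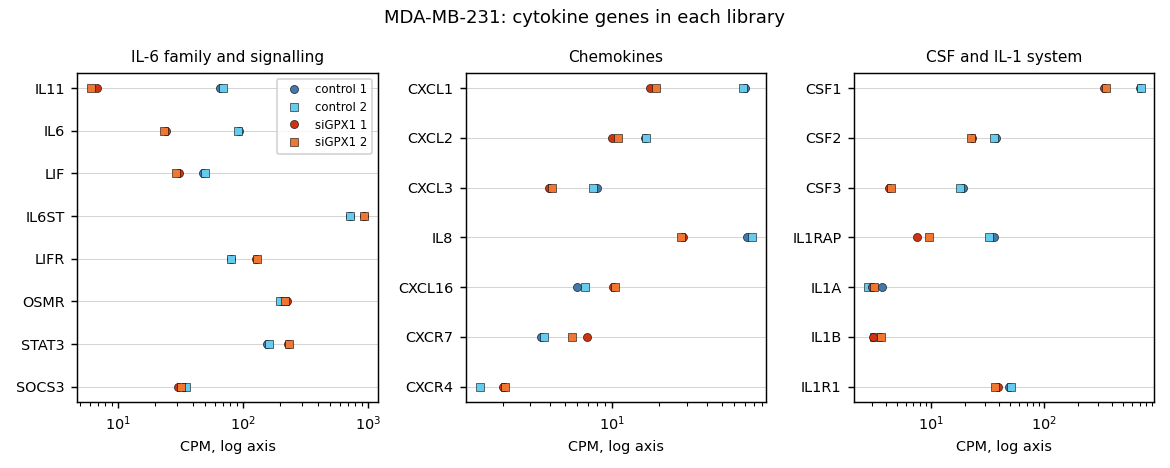
Cytokine, chemokine and receptor genes in each MDA-MB-231 library, in CPM on log axes, with circles for replicate 1 and squares for replicate 2. IL11, IL6, LIF, CXCL1, CXCL2, CXCL3, IL8, CSF1, CSF2, CSF3 and IL1RAP lie lower in both siGPX1 libraries, IL6ST, LIFR and STAT3 lie higher, and IL1B and CXCR4 overlap or nearly so.

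Promoters of 6 lowered cytokine and chemokine genes held a common letter pattern. A kappaB site, which NF-kappaB binds, was searched as GGNNTTTCC on both strands in RefSeq promoters (GRCh38.p14, 250 bases before to 50 after the start), a pattern chosen after the changes were known. Only 34 of the 45 tested cytokine, chemokine and receptor list members had a promoter to search, and the rising CXCL16 and CXCR7 had none. The pattern was found in 6 of 12 called lower, in 0 of 7 called higher and in 5 of 15 not called. It was in 8.88% of the 11087 tested genes with a promoter and in 10% of all genes called lower with one. A gene counted if any of its promoters held the pattern. The 7 called higher (IL6ST, LIFR, OSMR, JAK1, STAT3, SOCS1 and PIAS3) were receptor and signalling genes. None was a cytokine or chemokine gene, so these counts do not compare falls and rises of like genes. A looser kappaB pattern, of 3 G, 5 free positions and 2 C, overlaps the first at some sites. It was in 79.2% of the same 11087 genes. Among the list members it was in 9 of the 12 called lower, 7 of the 7 called higher and 11 of the 15 not called. Shown is the site nearest to the start in 5 of the 6 genes, with the match in capitals.
IL6: caaatgtgGGATTTTCCcatgagtc
IL8: caaatcgtGGAATTTCCtctgacat
CXCL1: ggggctccGGGCTTTCCagccccaa
CXCL2: gggactccGGGCTTTCCagccccaa
CXCL3: gccgctccGGGCTTTCCagtctcaa
The IL6 site begins 72 bases before the start (chr7:22727120-22727144, plus strand), the IL8 site 91 bases before (chr4:73740470-73740494, plus strand) and those of the CXCL genes 53 bases before. CXCL1, CXCL2 and CXCL3 are duplicated genes with similar promoters and are not independent of each other. A match is a description of the sequence and not a measurement of binding.

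Genes downstream of MAP kinase signalling, which activating RAS and RAF mutations drive in this line, went down more often than up. Of 33 feedback and AP-1 genes 17 fell (51.5%) and 4 rose (13 or 14 falls and 2 to 4 rises without any 1 library), with a median of -0.27. The median was -0.10 without control replicate 1, -0.13 without siGPX1 replicate 1 and -0.11 with limma on log2(TPM + 1). The RAS pathway inhibitor SPRED3 went from 12.5 and 11.3 to 2.76 and 2.43 CPM, the ETS factor ETV4 from 38.1 and 42.0 to 16.4 and 17.4 CPM and the EGF receptor ligand EREG from 90.5 and 84.0 to 51.4 and 51.6 CPM. JUND rose by 0.70 ± 0.08. Of 38 interferon-stimulated genes 9 rose and 9 fell, 23.7% each way, near the 20.7% and 21.9% of all genes. OAS3, which senses double-stranded RNA, was at -1.04 ± 0.07 (matched) and the RNA sensor TLR3 at 0.80 ± 0.10. The named members of both lists had an adjusted p of at most 2.8e-06, except TLR3 with 6.35e-06.

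Focal adhesions, where integrins link matrix to actin, showed changes in single proteins and balanced counts. Of 32 focal adhesion genes 9 rose and 9 fell, 28.1% each way, beside 20.7% and 21.9% of all genes. PXN, the scaffold paxillin, rose from 180 and 180 to 429 and 420 CPM (2.36-fold, adjusted p = 5.46e-13). NEDD9, a docking protein of focal adhesion kinase, rose from 35.7 and 35.1 to 69.5 and 75.8 CPM and the tensin TNS4 from 51.4 and 50.9 to 98.4 and 99.9 CPM (matched). The kinase gene PTK2 itself did not pass, at 221, 229, 231 and 227 CPM (0.03 ± 0.04, adjusted p = 0.606). Falling members were the paxillin-binding GIT1 (63.3 and 65.4 to 23.1 and 22.1 CPM, matched), the adaptor CRKL (132 and 125 to 66.9 and 65.0 CPM) and the actin crosslinker ACTN1 (594 and 592 to 335 and 323 CPM).

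Integrin and matrix genes moved by smaller amounts. Of 27 integrins and matrix receptors 8 rose and 5 fell (1 to 3 falls without any 1 library), and ITGA6, the laminin-binding alpha chain, rose most among the well-expressed ones, from 693 and 667 to 941 and 968 CPM. ITGAV rose by 0.30 ± 0.07 and ITGA1 fell by 0.47 ± 0.09 (matched). Of 42 matrix proteins 12 rose and 14 fell. COL7A1, the anchoring fibril collagen, went from 186 and 175 to 99.4 and 96.0 CPM, CTGF from 121 and 127 to 70.1 and 74.2 CPM (matched) and the matricellular NOV from 19.0 and 19.2 to 12.4 and 12 CPM. LAMA4, a laminin chain, rose from 1.19 and 1.81 to 4.25 and 3.36 CPM. Each called gene of these lists that is named had an adjusted p of at most 0.00196.

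Among 34 matrix proteases and inhibitors 11 rose and 8 fell (5 or 6 falls without any 1 library). The protease inhibitor TIMP2 went from 672 and 696 to 328 and 326 CPM (-1.06 ± 0.05, matched). In the plasminogen system the tissue activator PLAT rose from 204 and 208 to 382 and 388 CPM, while the urokinase PLAU (-0.29 ± 0.05, matched) and its receptor PLAUR (-0.67 ± 0.07) fell. The collagenase MMP1 rose from 28.5 and 25.9 to 36.9 and 39.9 CPM, and the membrane protease MMP14 moved by 0.12 ± 0.04 (adjusted p = 0.0125).

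Genes associated with bone-seeking and lung-seeking sublines of MDA-MB-231 did not move one way. Of 24 tested, 8 rose, 8 fell and 8 did not pass. IL11 (matched), CXCL1, CTGF (matched), the activin antagonist FST (9.03 and 9.52 to 4.38 and 4.93 CPM) and tenascin C, TNC (240 and 241 to 180 and 173 CPM), were lower. PTGS2, the inducible cyclooxygenase, was higher though scarce, at 1.52 and 2.01 against 4.72 and 3.28 CPM (1.18 ± 0.28, adjusted p = 0.0027), as were NEDD9, MMP1 and the mannosidase MAN1A1 (0.62 ± 0.12). ID1, an inhibitor of basic helix-loop-helix factors, did not pass at 171, 186, 177 and 190 CPM, and SPARC was at about 1 CPM in all 4 libraries.

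**Figure D4:**
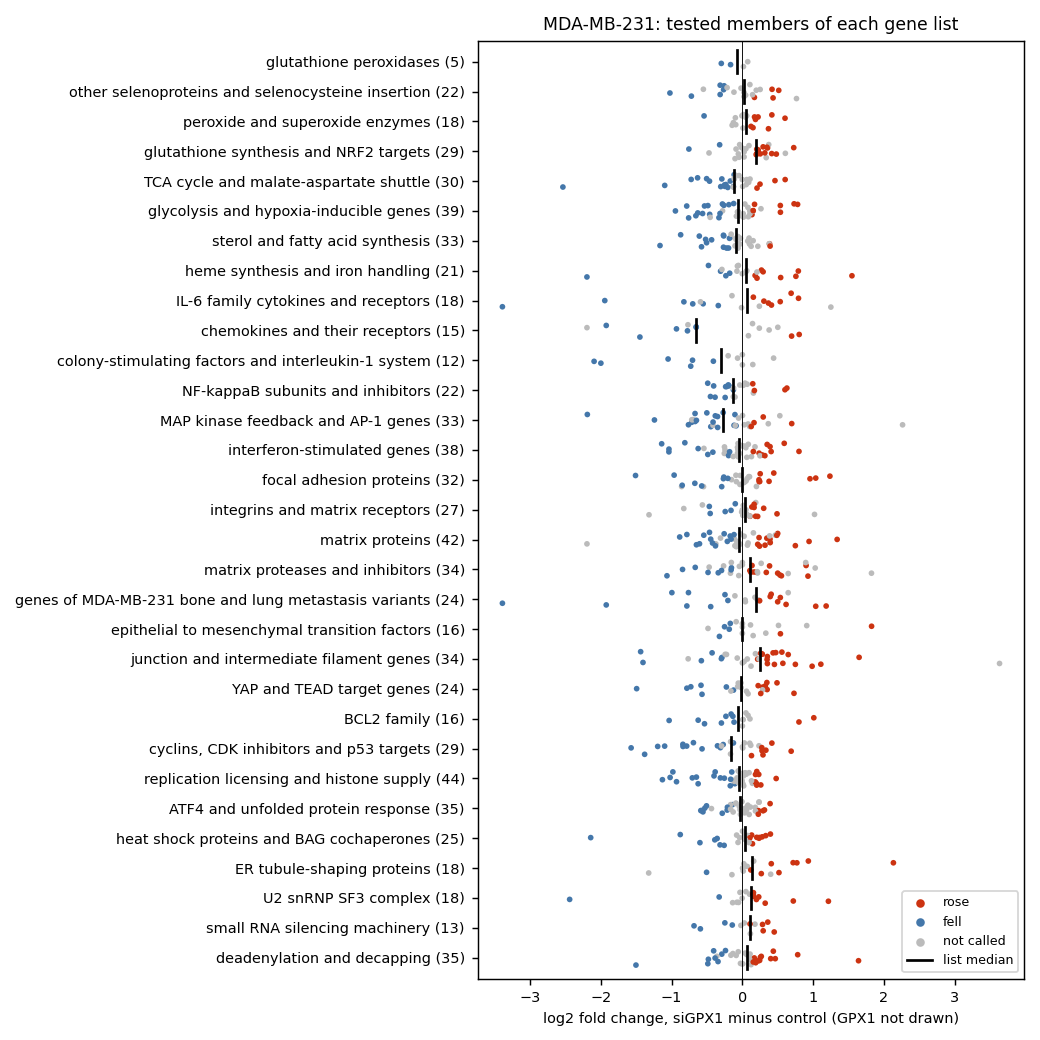
Log2 fold change of the tested members of each gene list in MDA-MB-231, with list medians as black bars, called rises in red, called falls in blue and uncalled members in grey (GPX1 is not drawn), and the number tested in brackets. Marker lists of cell types are not drawn. The median is -0.65 for chemokines, closer to 0 when either control library is left out, and 0.25 for junction and filament genes.

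The simple epithelial keratins KRT7, KRT8, KRT18 and KRT19 rose in this mesenchymal line, and KRT80 and KRT81 fell. Of 34 junction and intermediate filament genes 17 rose (50%) and 6 fell, with a median of 0.25. KRT8 went from 454 and 449 to 745 and 771 CPM, its partner KRT18 from 322 and 318 to 486 and 516 CPM, KRT19 from 236 and 243 to 358 and 347 CPM and KRT7 from 444 and 461 to 610 and 629 CPM. Each of these keratins was higher in both siGPX1 libraries, and VIM was higher too (0.35 ± 0.03). KRT81, a hair keratin, went from 97.1 and 103 to 66.5 and 67.8 CPM and KRT80 from 329 and 329 to 260.1 and 275 CPM. The epithelial cadherin CDH1 stayed scarce, at 0.66 and 0.97 against 1.55 and 2 CPM (adjusted p = 0.0415), and so did the N-cadherin CDH2, at 0.86 and 0.71 against 1.15 and 2 CPM (0.98 ± 0.36, adjusted p = 0.0406). The cadherin CDH11 fell from 187 and 190 to 72.3 and 70.2 CPM (matched) and CDH4 from 30.6 and 30.5 to 11.7 and 10.8 CPM (matched). The keratins were chosen for this account after their values were seen.

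Luminal epithelial markers, a list that shares those keratins, had 9 rises and 2 falls among 13 (7 or 8 rises and 1 fall without any 1 library), with a median of 0.65, and took 0.132% of the counts in both controls and 0.203 and 0.208% after depletion. The mucin MUC1 rose from 26.4 and 26.8 to 61.1 and 63.9 CPM, while GATA3 (-0.37 ± 0.13) and SPDEF (-0.68 ± 0.13) fell. In bulk RNA a change in the share of cells and a change per cell cannot be told apart. Of 13 mesenchymal line markers 7 rose and 3 fell. CAV2, a caveolin, rose from 98.4 and 104 to 267 and 269 CPM and CAV1 from 653 and 666 to 952 and 958 CPM, and the receptor tyrosine kinase AXL fell from 1280 and 1291 to 868 and 864 CPM. Fibroblast markers (2 rose and 1 fell of 12, 1 to 3 rises without any 1 library, summed at 0.00433 to 0.0054% of counts) and endothelial markers (1 rose and 2 fell of 4, 0 falls without any 1 library, summed at 0.00459 to 0.00523%) took a small share in all libraries, though the collagen gene COL1A1 and the endothelial adhesion gene ESAM were over 10 CPM in each.

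Transcription factors of the epithelial to mesenchymal transition stayed close to control apart from SOX4. Of 16 tested, 2 rose and 4 fell, and 0 falls remained called without any 1 library. ZEB1 was at 93.0 and 90.9 against 82.8 and 78.8 CPM, and SNAI2 did not pass, at 35.4, 39.5, 43.2 and 40.0 CPM. Of 24 YAP and TEAD target or pathway genes 8 rose and 7 fell. WWTR1, the coactivator TAZ, went from 77.7 and 78.3 to 27.7 and 27.7 CPM (-1.49 ± 0.06, matched), CTGF fell, and the inhibitory kinase LATS2 (36.8 and 40.3 to 65.5 and 62.2 CPM) and the adaptor AMOTL2 (0.49 ± 0.05) rose. CDC42, the GTPase that directs actin protrusion, fell from 326 and 318 to 132 and 136 CPM (2.40-fold, matched), opposite to its effector CDC42SE2.

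Growth and survival genes fell more often than they rose, but not under every filter. With the filter of 5 CPM in 2 libraries 11 replication genes fell and 11 rose. In the BCL2 family 4 of 15 then fell and 3 rose, while the cyclin list kept its lean, with 12 falls and 8 rises. Of 29 cyclins, CDK inhibitors and p53 targets 13 fell (44.8%) and 7 rose, with a median of -0.17 over all 29 and of 0.00533 over the 23 with no match. The G1 cyclin CCNE1 went from 18.4 and 21.6 to 6.13 and 7.35 CPM (matched) and E2F2 from 12.1 and 13.2 to 5.73 and 5.28 CPM (matched), while the CDK inhibitor CDKN1B, p27, rose from 33.4 and 34.0 to 54.4 and 54.2 CPM. Of 44 replication genes 15 fell and 8 rose (9 to 11 falls and 4 to 7 rises without any 1 library), led downward by the origin recognition subunit ORC2 (-1.13 ± 0.09, matched), SLBP (-1.02 ± 0.05, matched) and GINS3 (-0.98 ± 0.10, matched). In the BCL2 family 8 of 16 fell and 2 rose (3 or 4 falls without any 1 library). The survival gene BCL2L2 went from 62.0 and 65.4 to 29.5 and 32.8 CPM and the death effector BAX from 50.6 and 52.9 to 35.9 and 35.5 CPM, while the BH3-only genes BIK (1.01 ± 0.24) and BMF (0.80 ± 0.13) rose.

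Genes of the ATF4 and unfolded protein responses changed in both directions. Of 35, 9 fell (25.7%, near the share of all genes) and 5 rose, and without control replicate 1 the counts were 6 and 7. Among them were TRIB3 (-0.59 ± 0.12) and DDIT3, which encodes CHOP (-0.57 ± 0.15), lower and the disulfide isomerase PDIA4 higher (0.31 ± 0.04, matched). Of 25 heat shock and BAG genes 9 rose and 7 fell. BAG2, which restrains the ubiquitin ligase STUB1, went from 130 and 130 to 30.5 and 28.4 CPM (-2.14 ± 0.06), and STUB1 itself from 60.0 and 57.0 to 30.3 and 33.3 CPM. Of 18 genes that shape endoplasmic reticulum tubules 8 rose (44.4%) and 1 fell. After ARL6IP1 the named rises were those of REEP1, a curvature protein that stayed scarce (1.05 and 0.65 against 1.95 and 1.29 CPM, 0.93 ± 0.33, adjusted p = 0.032), and SPAST, the microtubule-severing spastin, at 18.3 and 19.7 against 32.3 and 32.6 CPM. ATL2, an atlastin that fuses the tubules, fell by 0.51 ± 0.07.

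RNA-processing complexes showed opposite changes among subunits. In the U2 snRNP SF3 list 9 of 18 rose (50%) and 2 fell. PHF5A fell 5.42-fold, while 3 other SF3B subunits rose, SF3B5 from 18.9 and 21.3 to 48.9 and 44.4 CPM, SF3B3 from 243 and 228 to 396 and 379 CPM (matched) and SF3B1 from 416 and 416 to 526 and 514 CPM. A further subunit, SF3B14, was the other fall, from 63.4 and 58.6 to 49.6 and 47.6 CPM (-0.33 ± 0.06). Among 35 deadenylation and decapping genes 13 rose and 8 fell (8 to 13 rises without any 1 library), with DCP2 up and EDC3, which promotes decapping, down from 39.8 and 41.6 to 14.4 and 14.3 CPM. Of 13 small RNA silencing genes 5 rose and 4 fell, among them DICER1, which cuts precursors of small RNAs (0.45 ± 0.04), AGO2 (0.29 ± 0.06, matched) and AGO1 (-0.68 ± 0.07, matched).

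Some of the changes named above differed from those in Hs578T when the difference itself was tested, as 17.0% of all tested genes did. IL6 moved in opposite directions, falling here and rising by 0.94 on the log2 scale in Hs578T (difference -2.88, adjusted p = 8.26e-11). IL11 fell in both lines, and more in MDA-MB-231 (difference -2.08, adjusted p = 8.1e-07). TNC and ADM also moved oppositely, with differences of -1.59 and -1.33 (adjusted p = 2.77e-08 and 5.09e-07). SOX4, FAM160B1 and CITED2 rose more in MDA-MB-231, by 0.52, 0.61 and 0.59 (adjusted p of at most 0.00153). For GPX1 the difference did not pass (-0.25 ± 0.17, adjusted p = 0.409), nor for ARL6IP1 (0.07 ± 0.06, adjusted p = 0.501). IL6, TNC and ADM were chosen after their values were seen, because they were called in opposite directions in the lines and passed this test. For these genes passing was the rule of entry and not a result.

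**Figure D5:**
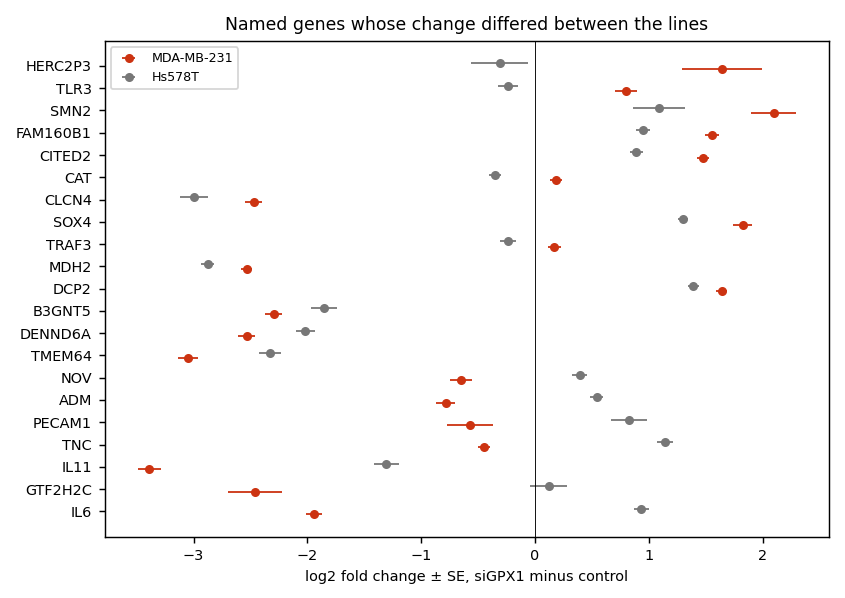
Log2 fold change with its standard error in MDA-MB-231 (red) and Hs578T (grey) for named genes whose change differed between the lines at an adjusted p under 0.05, ordered by the difference. Genes named from the lists were drawn only if they were also called in opposite directions in the lines. IL6, GTF2H2C and IL11 have the most negative differences and HERC2P3 the most positive, and IL6, TNC, PECAM1, ADM, NOV, TRAF3, CAT and TLR3 were called in opposite directions.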

How the data were processed

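RNA-seq gene tables of 8 libraries were used, 4 of them from MDA-MB-231. The values are expected counts per gene, per the file headers, and the submitters' processing notes name RSEM 1.2.12, FastQC and hg19. TPM values, as deposited by the authors, divide those estimates by transcript length before scaling. The aligner is not given in the sources used here. Expected counts were rounded, filtered by edgeR's filterByExpr with 4 groups (14249 of 23686 genes kept), scaled by TMM, and modelled with 1 mean for each of the 4 groups over all 8 libraries. This left 4 residual degrees of freedom and a biological coefficient of variation of 0.0342. The quasi-likelihood test was used with Benjamini-Hochberg adjustment. The standard error of a log2 change was taken as its size divided by the root of its F statistic. CPM uses TMM-scaled totals, and precision is limited by depth and by 2 libraries per group. Strand use in counting is not given in the sources used here.

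The members and gene lists were chosen with earlier results of these data known, and no list was tested. Named genes were GPX1, the 12 largest rises and falls with a mean of at least 5 CPM and separate groups, and per list the preset members and up to 3 called members per direction with at least 1 CPM (not all are printed). CXCL2, CDC42, the keratins, and the markers used to check the cell line were added after their values were seen. Some genes and 1 list are not reported here. Of the tested genes, 13104 (92.0%) had a GENCODE 29 3' UTR of at least 30 bases, joined by accession or symbol.

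The fit was tested on simulated counts. Beside it stood edgeR with the size factors of DESeq2, DESeq2 itself, no filter, a filter of 5 CPM in 2 libraries, the MDA-MB-231 libraries fitted alone, a replicate block, limma on log2(TPM + 1), and fits that dropped 1 library each. Versions were R 4.3.3, edgeR 4.0.16, limma 3.58.1, DESeq2 1.42.0 and Python 3.11.15.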

Additional observations from a re-analysis of the deposited data

Results flagged for a closer look

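Of the 24 genes named by size, 13 changed differently in MDA-MB-231 and Hs578T by the interaction test of edgeR with Benjamini-Hochberg adjustment. Over all tested genes 17.0% did. The 24 were picked for large changes in MDA-MB-231, which enter the difference, so the 2 shares are not comparable. Differences are MDA-MB-231 minus Hs578T on the log2 scale. More positive in MDA-MB-231 were SMN2 (1.01, adjusted p = 0.04), HERC2P3 (1.96, adjusted p = 0.00551), FAM160B1 (0.61), CITED2 (0.59), SOX4 (0.52), DCP2 (0.25), CLCN4 (0.53) and MDH2 (0.34), of which CLCN4 and MDH2 fell in both lines and fell less here. More negative were GTF2H2C (-2.58, adjusted p = 2.1e-05), IL11 (-2.08), TMEM64 (-0.72), DENND6A (-0.52) and B3GNT5 (-0.44, adjusted p = 0.0474). SMN2, HERC2P3 and GTF2H2C have near-identical copies.

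A further 8 genes named from the lists were picked because they were called in opposite directions in the lines and differed by the same test. Passing that test was the rule of entry and not a result. Those lower in MDA-MB-231 and higher in Hs578T were IL6 (difference -2.88), TNC (-1.59), PECAM1 (-1.40), ADM (-1.33) and NOV (-1.04). Those higher in MDA-MB-231 and lower in Hs578T were TLR3 (1.04), CAT (0.53) and TRAF3 (0.41). Their adjusted p was at most 0.00554.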

How the results depend on the processing

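The count of falls, 3116, was 1834 with DESeq2 (2287 rises) and 2033 to 2164 with 1 library left out (2787 to 2857 rises), fits in which the median of all genes stood 0.03 to 0.04 higher on the log2 scale. It was 2164 without control replicate 1. It was 2033 without siGPX1 replicate 1, 2070 without siGPX1 replicate 2 and 2076 without control replicate 2. The replicate block, with 2 residual degrees of freedom, gave 2920 rises and 3112 falls, and no named call by size changed with it. The replicate numbers are shared labels only, and the deviations of same-numbered libraries had r = 0.20 over 10840 genes. The 24 genes named by size kept their direction in all 264 values, 1 for each gene in each alternative fit. These fits share libraries. With members restricted to those with a 3' UTR that held neither GGGCATC nor GGCATCA, 5 list medians changed sign. They went from -0.00733 to 0.0407 for focal adhesion, from -0.0544 to 0.0719 for matrix proteins, from -0.0182 to 0.0697 for YAP and TEAD genes, from -0.0587 to 0.00034 for the BCL2 family and from -0.166 to 0.00533 for cyclins, CDK inhibitors and p53 targets. Depth limits genes near 1 CPM, such as CXCR4, PTGS2 and CDH1.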
